A study of Mus musculus with 3 samples.

Results

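Smooth muscle cells and pericytes were picked out of single-cell RNA-seq libraries of the mouse vomeronasal organ (VNO). They are named mural cells here, after the cells that wrap blood vessels. The rule below can admit a cell by Myh11 alone, which does not separate smooth muscle of vessels from other smooth muscle. A cell counted as mural when it held at least 3 unique molecular identifiers (UMIs, each standing for 1 captured mRNA molecule) of Rgs5 or at least 3 of Myh11. Rgs5 encodes a regulator of G-protein signaling that marks pericytes, and Myh11 encodes the smooth muscle myosin heavy chain. Cells with more than 4 UMIs of the endothelial genes Cldn5 and Egfl7, with over 0.1% of their UMIs from the macrophage genes C1qa, C1qb and C1qc, or with over 0.2% from the fibroblast gene Dcn were left out. Of 27359 barcodes in 3 libraries, 13353 were kept (200 to 9000 genes, at least 1000 UMIs and at most 10% mitochondrial UMIs), and 500 of these were mural cells.

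All libraries came from VNOs of Male mice on a C57 BL/6J 129P2/OlaHsd Mixed Background. The control was OMPCre Heterozygous at Postnatal day 10 (P10), and the mutants were OMPCreR26AP2e Double Heterozygous, 1 library at Postnatal day 10 and 1 from a 3mo Adult. Every group thus carried Cre under the olfactory marker protein gene, Omp, which is used by maturing sensory neurons and not by mural cells, and the mutants added a Rosa26 transgene for the transcription factor AP-2ε, encoded by Tfap2e. The tissue was dissociated with papain and Collagenase A, frozen as a suspension and profiled with 10x 3′ chemistry, and the number of animals in a library was not given in the sources used here. Each group was 1 library, so no p-value or standard error was computed. At P10 a difference of genotype cannot be told apart from one of library, nor can one of age between the mutants. The mutant at P10 stands in both comparisons below. Sets of 3 values follow the order P10 control, P10 mutant, 3-month mutant, and pairs at P10 give the control first. Brackets hold 95% intervals that cover counting error only, since neither the spread between cells nor that between animals enters them.

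The mouse VNO lies beside a large vein in a bed of erectile tissue, and the filling and emptying of its vessels under autonomic control pumps fluid into the sensory lumen. Smooth muscle cells contract when calcium activates myosin light chain kinase, and nitric oxide relaxes them through cyclic GMP. Pericytes sit on capillaries within the basement membrane that they share with endothelial cells, and depend on platelet-derived growth factor (PDGF) and Notch signals from the endothelium.

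Many genes of the contractile apparatus are known to be driven by serum response factor (SRF), which binds a 10-base element named the CArG box. The element was searched on both strands of the 250 bases before each start site in RefSeq promoters (GRCm38.p6). It was found in 482 of 32851 promoters (1.47%), and 439 of 27025 genes (1.62%) had it in at least 1 promoter. Of 25 contractile genes examined here, 21 had a promoter in the table and 4 of these 21 held the element (19%): Myl9, Myl6, Vcl and Ldb3. None of the 11 pericyte genes with a promoter held it, out of 15 in that list. The contractile genes summed to 49180.3, 50291 and 40884 CPM (UMIs of the genes over all UMIs of the same cells) in the mural cells of the P10 control, the P10 mutant and the 3-month mutant, and a pair of their windows that overlap no annotated exon is shown. The capitals mark the element. The Myl9 window, upstream of the regulatory light chain of smooth muscle myosin, is chr2:156775253-156775362 (+), where the element begins 161 bases before the start site. The Vcl window, upstream of vinculin, which anchors actin at the membrane, is chr14:20929148-20929230 (+), where it begins 227 bases before the start site.
Myl9: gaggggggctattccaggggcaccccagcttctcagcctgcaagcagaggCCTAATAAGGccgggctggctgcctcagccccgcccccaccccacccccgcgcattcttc
Vcl: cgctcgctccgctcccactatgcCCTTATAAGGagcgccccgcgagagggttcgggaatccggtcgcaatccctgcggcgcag
A match of letters is a description of these windows, and SRF binding was not measured.

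The libraries gave 231 mural cells of 4305 kept, 129 of 3741 and 140 of 5307. Their share of kept cells was 5.37% [4.71, 6.08] for the P10 control, 3.45% [2.89, 4.08] for the P10 mutant and 2.64% [2.22, 3.11] for the 3-month mutant. The control interval lay above both mutant intervals, and the mutant intervals overlapped. With a mitochondrial limit of 5% in place of 10% the shares were 1.54%, 1.06% and 0.910%, and all 3 intervals overlapped. The median mitochondrial share was 7.12%, 7.62% and 7.67% in mural cells and 5.78%, 6.11% and 3.86% in the other kept cells of the same libraries.

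Against endothelial cells and fibroblasts the order was the same. There were 142, 198 and 349 endothelial cells (more than 4 UMIs of Cldn5 and Egfl7 with the other limits kept), which gave 1.63 [1.31, 2.02] mural cells per endothelial cell for the P10 control, 0.652 [0.518, 0.817] for the P10 mutant and 0.401 [0.327, 0.489] for the 3-month mutant. For 139, 97 and 392 fibroblasts (over 0.2% Dcn) the ratios were 1.66 [1.34, 2.07], 1.33 [1.01, 1.75] and 0.357 [0.292, 0.434]. The P10 mutant was thus below the control against endothelial cells, while against fibroblasts the P10 intervals overlapped. Fewer mural cells in the tissue and fewer that survived dissociation and freezing cannot be told apart here.

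The members held 3474929, 1824610 and 1598556 UMIs in all, with medians of 14009, 12131 and 10451 UMIs per cell and a range of 1017 to 79742 over the libraries. Exactly at the threshold of 3 UMIs stood 7, 8 and 6 mural cells, and 31, 11 and 36 cells just outside it had 2 UMIs of either gene as their highest count. The limits on endothelial, macrophage and fibroblast genes removed 9, 12 and 39 cells that passed the Rgs5 or Myh11 threshold. Set against 140 members, the limits and the threshold thus weighed most in the 3-month library, where a threshold of 2 UMIs gave 176 mural cells and a share of 3.32%. Between 21 and 30 barcodes were shared by each pair of libraries, and no shared barcode was a mural cell in both. No doublet caller was run, so cells of mixed content are described by their markers instead.

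The label was checked with Acta2 and Tagln, which the rule did not use. Levels in CPM pool the UMIs of a gene over all cells of a set. Acta2, the smooth muscle α-actin, stood at 13293, 13229 and 7718 CPM in the mural cells. In fibroblasts it stood at 1658, 1497 and 1709 CPM and in endothelial cells at 24.5, 24.4 and 23.3 CPM. Tagln, the actin-binding protein transgelin, had 3429, 3419 and 3235 CPM in mural cells, against 1798, 1387 and 2368 CPM in fibroblasts and 48.6, 39.6 and 37.5 CPM in endothelial cells. Both genes were higher in mural cells than in the other types in every library, and Tagln was nearer to its fibroblast level than Acta2 was.

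Per cell the same order held. Acta2 was seen in 226 of 231, 127 of 129 and 131 of 140 mural cells, and in 94.5%, 94.4% and 87.3% of them once cells had been thinned to 2000 UMIs. The thinned share was 55.2%, 56.4% and 63.9% in fibroblasts and 8.76%, 5.67% and 2.97% in endothelial cells, whose median depths were 10343, 13566.5 and 8849 UMIs before thinning. The part of free RNA in these shares was not tested. Rgs5 and Myh11 chose the cells, so their levels are only a description. Rgs5 stood at 1290.4, 1721 and 1885 CPM in mural cells and at 15.5, 24.5 and 11.8 CPM in all other kept cells, and Myh11 at 2165, 2336 and 2638 CPM against 6.88, 4.0 and 15.2 CPM.

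**Figure D1:**
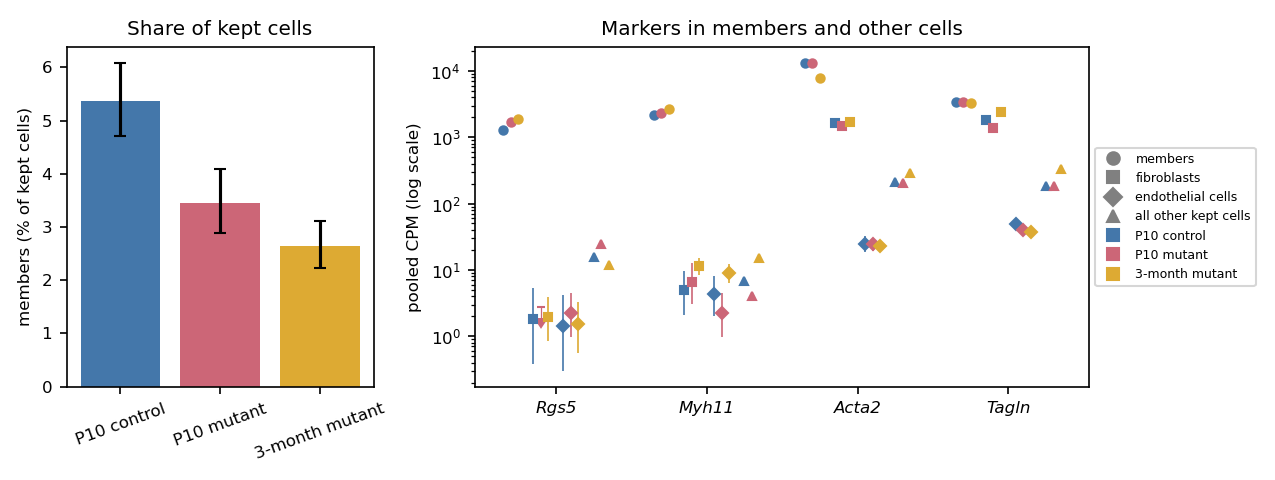
Mural cells as a percentage of kept cells in each library (bars, Clopper-Pearson 95% intervals) and the level of Rgs5, Myh11, Acta2 and Tagln in CPM on a log scale in mural cells, fibroblasts, endothelial cells and other kept cells (points, Poisson 95% intervals, an arrow where no UMI was seen and only an upper limit can be drawn). The bar falls from 5.37% in the P10 control to 2.64% in the 3-month mutant, and each marker is highest in mural cells in every library.

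Tfap2e, the transgene's product, was low in mural cells of every library. It stood at 1.15, 25.2 and 11.3 CPM. All other kept cells had 10.2, 166 and 53.4 CPM, endothelial cells 0, 18.2 and 14.5 CPM, and fibroblasts 0, 11.8 and 13.6 CPM. By the rule for calls given below it was called higher in the P10 mutant than in the control (ratio 21.9 [8.0, 83.8]). Mural cells, endothelial cells and fibroblasts held Tfap2e at like low levels in both mutants, and the part of free RNA in these UMIs was not tested. After thinning, 2 of 220, 7 of 125 and 0 of 126 mural cells held a Tfap2e UMI. Thinning limits what can be seen, since 16 of the 140 unthinned mural cells of the 3-month mutant held at least 1.

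The 500 cells fell into 3 sets by the gene that admitted them. Cells with Myh11 alone at the threshold were the majority in each library, with 166, 96 and 100 cells (71.9%, 74.4% and 71.4%). Cells with Rgs5 alone numbered 33, 16 and 19 (14.3%, 12.4% and 13.6%), and 32, 17 and 21 cells had both genes. The plot of Rgs5 against Myh11 shows the sets at like proportions in the libraries. The Rgs5-only cells had median depths of 13081, 9043.5 and 4912 UMIs, against 14224.5, 12706.5 and 11958.5 UMIs for the Myh11-only cells. Without those that held at least 3 UMIs of the epithelial gene Epcam, described below, the Rgs5-only medians were 8794, 9043.5 and 4780 UMIs, so the P10 libraries then lay close together. With such cells left out of all sets, Rgs5-only cells were 17 of 200, 16 of 122 and 13 of 118 mural cells.

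**Figure D2:**
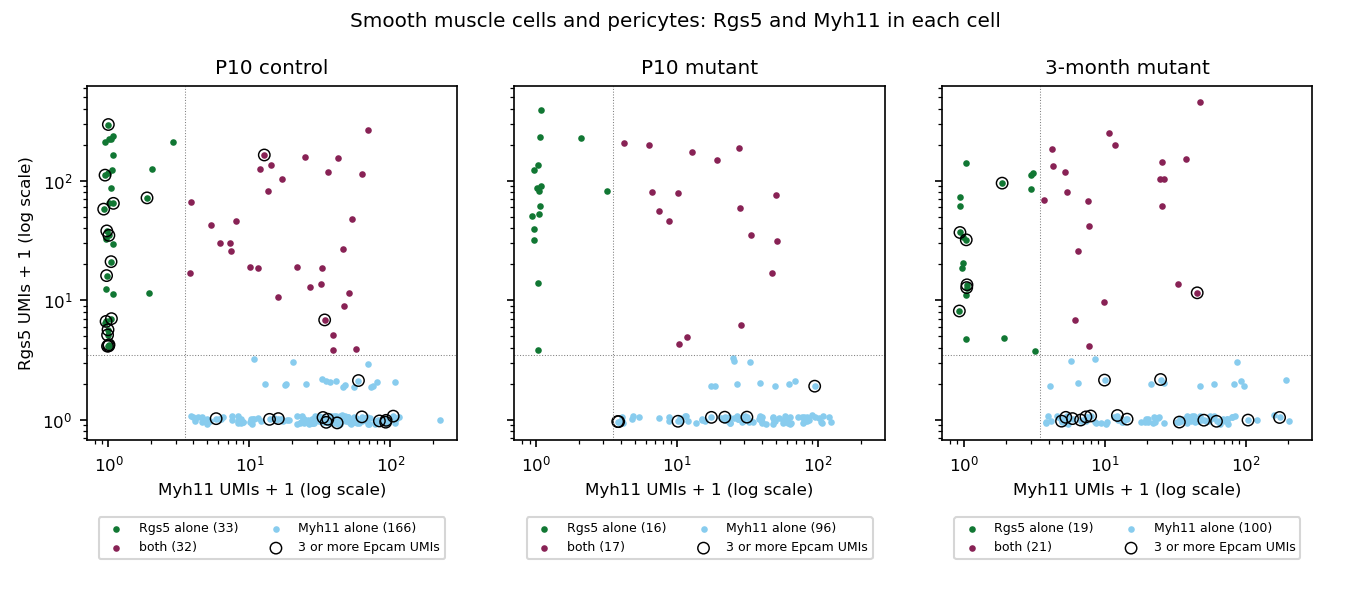
Rgs5 UMIs plus 1 against Myh11 UMIs plus 1 in each mural cell, on log scales, with 1 panel per library, colours for the 3 sets, dotted lines at the threshold and black rings around cells with at least 3 Epcam UMIs. Most cells lie along the Myh11 axis, and in the P10 control 16 of 33 Rgs5-only cells carry a ring.

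The sets were chosen by 2 genes of these same cells, so the other genes that separate them are described here with no test. The genes below, other than those in the lists, were picked after their values were seen. Pericyte genes were highest in Rgs5-only cells at P10. Kcnj8 (chr6:142564837-142571614, −, GRCm38, GENCODE M21) encodes the pore of the KATP potassium channel of pericytes, and lies next to Abcc9, which encodes its sulfonylurea subunit. Kcnj8 had 308, 542 and 171 CPM in Rgs5-only cells of the P10 control, the P10 mutant and the 3-month mutant, 38.8, 83.3 and 77.8 CPM in cells with both genes, and 5.97, 9.97 and 0 CPM in Myh11-only cells. Abcc9 followed it with 309.8, 375 and 141 CPM, then 16.3, 65.8 and 88.9 CPM, then 3.98, 2.85 and 0 CPM. Both channel genes thus declined in each library from the Rgs5-only to the Myh11-only set. Without the Epcam cells, Kcnj8 stood at 807, 542 and 472 CPM in Rgs5-only cells, so at P10 the control was then above the mutant.

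The secreted adhesion protein Vtn stood at 21.1, 130.3 and 82.5 CPM in Rgs5-only cells and at 0 in Myh11-only cells of every library. Higd1b, a mitochondrial protein gene used as a pericyte marker, had 774, 1298 and 489 CPM in Rgs5-only cells, 40.9, 145 and 928 CPM in cells with both genes and 1.19, 0 and 0 CPM in Myh11-only cells. Of the 19 Rgs5-only cells of the 3-month mutant, 6 held Epcam and had no Higd1b UMI, and the other 13 stood at 1350 CPM. Without the Epcam cells Higd1b stood at 1804, 1298 and 1350 CPM in Rgs5-only cells, with the control above the mutant at P10. Vtn then stood at 65.1, 130.3 and 228 CPM. Pdgfrb, the PDGF receptor that pericytes need, was not confined to 1 set, with 483, 1167 and 318 CPM, then 355, 579 and 689 CPM, then 109.5, 124 and 94.5 CPM. The Rgs5-only level of Pdgfrb without the Epcam cells was 1179, 1167 and 878 CPM, above the cells with both genes in each library. The 15 pericyte genes summed to 9224, 15779 and 7094 CPM in Rgs5-only cells, to 5957, 9020 and 16874 CPM in cells with both and to 549, 633 and 387 CPM in Myh11-only cells.

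Genes of contraction ran the other way. Acta2 stood at 1147, 1527 and 412 CPM in Rgs5-only cells, at 12182, 8753 and 5565 CPM in cells with both genes, and at 15805, 15554 and 9021 CPM in Myh11-only cells. Cnn1 (chr9:22099216-22109630, +), encoding the actin-bound protein calponin, had no UMI in Rgs5-only cells of any library, 355, 316 and 111 CPM in cells with both, and 984, 939 and 878 CPM in Myh11-only cells. Actg2 (chr6:83512905-83536265, −), the γ-actin typical of visceral smooth muscle, had 8.43, 15.6 and 5.89 CPM, then 682, 272 and 222 CPM, then 958, 1125 and 420 CPM. The cells with both genes lay between the other sets for Acta2 and Actg2 in each library. The calcium release channel Ryr2 was at 0 in Rgs5-only cells and at 37.8, 39.9 and 51.2 CPM in Myh11-only cells.

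Nrip2 was highest in cells with both genes in each library. Nrip2, a nuclear receptor partner, stood at 141, 101 and 194 CPM in them, against 4.22, 5.21 and 0 CPM in Rgs5-only cells and 4.78, 1.42 and 4.80 CPM in Myh11-only cells. Olfr558 (chr7:102702215-102712064, +), an odorant receptor gene known to be expressed in vascular smooth muscle, had 32.7, 78.9 and 139 CPM in them, 25.3, 5.21 and 17.7 CPM in Rgs5-only cells and 0, 0 and 2.4 CPM in Myh11-only cells. Without the Epcam cells its Rgs5-only level was 39.1, 5.21 and 48.8 CPM, on 6, 1 and 3 UMIs. Notch3, the mural cell Notch receptor, was at 378, 601 and 855 CPM in cells with both, at 318, 604 and 194 CPM in Rgs5-only cells and at 26.7, 32.0 and 20.8 CPM in Myh11-only cells. Without the Epcam cells, Notch3 stood at 703, 604 and 520 CPM in Rgs5-only cells, so it was no feature of the cells with both genes at P10. The Notch target gene Heyl stood at 59.2, 78.9 and 94.4 CPM in cells with both, and at 0.797, 0 and 0.801 CPM in Myh11-only cells. Notch3 and Heyl were thus low in the Myh11-only cells, which made up most of the population.

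**Figure D3:**
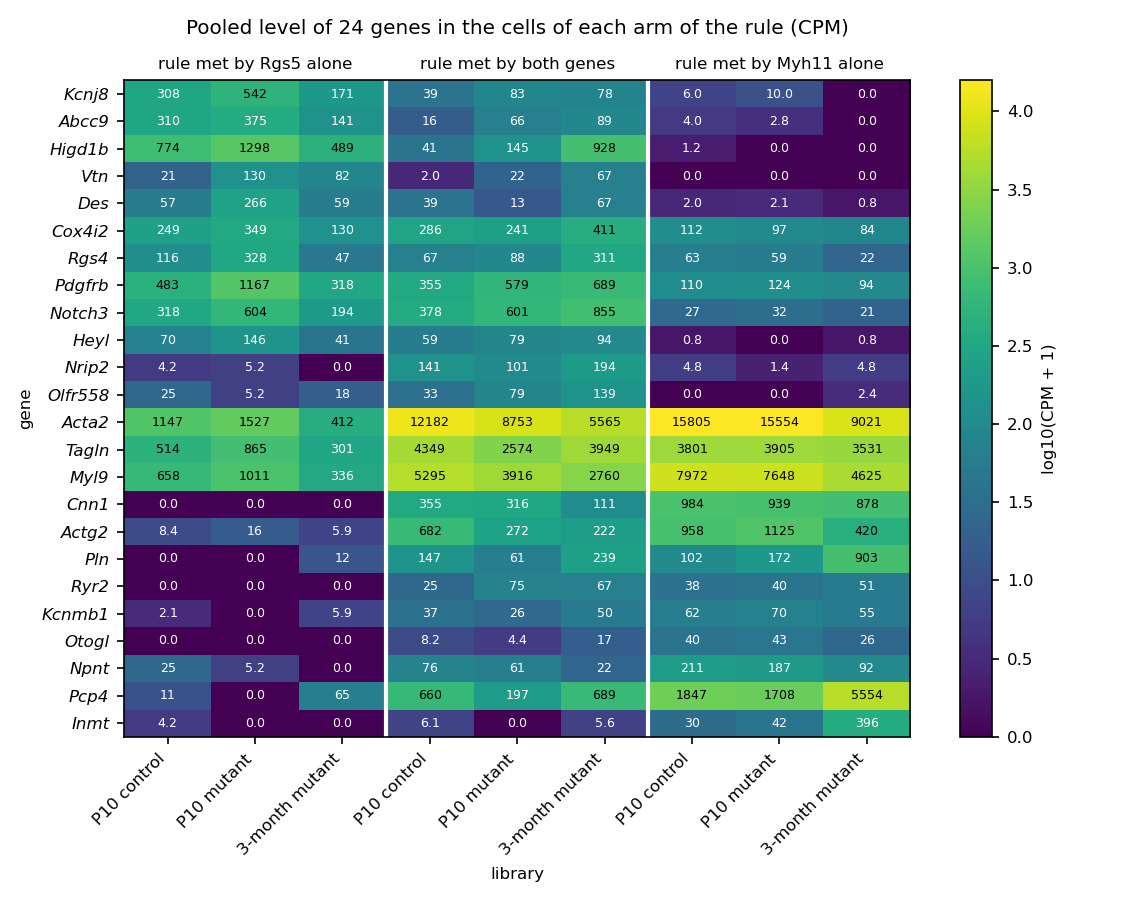
Heat map of 24 genes in Rgs5-only cells, cells with both genes and Myh11-only cells of each library, with the level in CPM printed in each cell and colour on a log scale. Kcnj8, Abcc9 and Vtn are highest in the Rgs5-only columns at P10, Nrip2 in the columns with both genes, and Cnn1 and Actg2 in the Myh11-only columns.

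Some of the Rgs5-only cells went against the label. Epcam, an epithelial adhesion molecule, had at least 3 UMIs in 31, 7 and 22 mural cells of the P10 control, the P10 mutant and the 3-month mutant, of which 16, 0 and 6 were Rgs5-only cells. In the P10 control those 16 cells had a median of 19191 UMIs and together 1393 UMIs of the epithelial keratin Krt18 and 48 UMIs of Pdgfrb. The other 17 had a median of 8794 UMIs, 13 UMIs of Krt18 and 181 of Pdgfrb. Rgs5 itself stood at 2344 CPM in the former and 11961 CPM in the latter. The 6 such cells of the 3-month mutant had 434 UMIs of Krt18, 0 of Pdgfrb, 0 of Kcnj8 and 0 of Higd1b. They held 1 UMI of Notch3. In the P10 control 7 of the 16 had no UMI of Pdgfrb or Notch3, while the 16 together had 43 UMIs of Notch3, 22 of Kcnj8 and 90 of Higd1b, so some carried pericyte RNA beside the epithelial RNA. The Epcam cells gave 67.6% of all Rgs5-only UMIs in the P10 control and 63.8% in the 3-month mutant, and they weigh on every pooled Rgs5-only level above. The Myh11-only set held Epcam cells too, 13, 7 and 15 of them. Of these, 2, 2 and 8 had no UMI of Pdgfrb or Notch3, as had 33, 19 and 40 of all Myh11-only cells. Without all Epcam cells the mural share was 4.65%, 3.26% and 2.22% of kept cells.

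Set against all other kept cells, 7171 genes had at least 20 UMIs in the mural cells of each library. Of these, 120 genes were at least 10 times and 26 at least 50 times higher in mural cells in every library. These ratios describe cells chosen by 2 genes and were not tested. The highest smallest ratio belonged to Otogl (chr10:107760531-107912134, −), an otogelin-like gene known from the inner ear, with 29.9, 34.0 and 21.9 CPM in mural cells and ratios of 194, 294 and 199. Otogl was found in Myh11-only cells at 39.8, 43.4 and 25.6 CPM and had no UMI in Rgs5-only cells. After it came Myh11, then Pln (chr10:53337667-53345987, +), encoding phospholamban, the brake of the calcium pump, with ratios of 251, 605 and 162, and Actg2 with 286, 378 and 158.

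Among the first 20 were further parts of the smooth muscle programme. Myocd, encoding the SRF partner myocardin, had ratios of 151, 470 and 141. Kcnmb1, the β-subunit of the BK potassium channel, had 226, 370 and 104, and Gucy1b1, the β-subunit of the nitric oxide receptor guanylate cyclase, had 87.3, 90.4 and 114. Pde5a, the phosphodiesterase that breaks down cyclic GMP, had 64.2, 69.1 and 67.4. Iyd, which encodes the iodotyrosine deiodinase best known from the thyroid, was also among them with 158, 139 and 103. The others were Slc38a11, Dhrs7c, Map3k7cl, Ryr2, Plin4, Ppp1r14a, Kcnab1, Sh3bgr, Rgs5, Col19a1 and Jph2.

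At P10 the mutant was compared with the control, gene by gene, in the pooled mural cells. A gene was tested when it had at least 20 UMIs in both libraries together, and was called when its CPM ratio was at least 2 or at most 0.5 and the interval of the ratio left out 1. Of 11404 genes, 159 were called higher in the mutant (1.39%) and 289 lower (2.53%), or 3.93% in either direction, and the median log2 ratio was 0.03. A single cell held over 25% of the UMIs for 68 of the higher and 112 of the lower genes, and 79 and 227 of them were below their level in the other kept cells of the library where they were higher. Endothelial cells had 1.76% called higher and 1.93% lower, and fibroblasts 1.61% and 2.68%, so mural cells had a like share of calls. With counts scaled by the median of ratios, 142 were higher and 303 lower. Without the cells with at least 3 Epcam UMIs, of which the control had more, 182 were higher and 118 lower of 10567 tested.

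The smooth muscle genes differed little between the P10 libraries. Acta2 had a mutant to control ratio of 0.995 [0.980, 1.01], Tagln one of 0.997 [0.967, 1.03] and Myl9, at 6596 and 6484 CPM, one of 0.983. Tpm2, a tropomyosin, stood at 5278 and 5475 CPM, and Myl6, the essential myosin light chain, at 6161 and 6340.0 CPM. Of 25 contractile genes tested, only Des, encoding the muscle filament desmin, was called, with 14.7 CPM in the control and 31.2 CPM in the mutant (ratio 2.13 [1.43, 3.17]), and 43.9% of its mutant UMIs were in 1 cell. The median log2 ratio of the list was 0.07. None of the 9 tested genes of nitric oxide and cyclic GMP relaxation was called (median 0.14), with Gucy1a1 at 278 and 279 CPM and the cyclic GMP kinase gene Prkg1 at 181 and 195 CPM. None of 18 channel and calcium store genes was called either (median 0.17).

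Pericyte genes had a median log2 ratio of 0.40 over 15 tested genes, with 12 above 0, and 1 gene was called. That gene was Vtn (chr11:78499091-78502324, +), at 3.17 CPM in the control and 16.4 CPM in the mutant (ratio 5.19 [2.53, 11.5]), found in 8 and 10 cells. Pdgfrb stood at 195 and 290.5 CPM (ratio 1.49 [1.33, 1.67]), Mcam, an adhesion molecule of vessel walls, at 206 and 265 CPM, and the mitochondrial subunit gene Ndufa4l2 at 148 and 191 CPM. These levels were higher in the mutant with intervals above 1, but within the limit of 2-fold. In the control 16 of 33 Rgs5-only cells carried Epcam and in the mutant none did, and without all Epcam cells the median of the pericyte list was 0.44. In Rgs5-only cells alone it was 0.76 with 4 of 15 called higher, and −0.39 with 2 of 14 called lower once the Epcam cells were left out, so its direction there depended on these cells. Over all genes tested in Rgs5-only cells 8.41% were called higher, and 3.13% were called lower without the Epcam cells. Of 13 tested mural transcription factor genes none was called (median 0.27), among them Klf4 at 423 and 514 CPM, Ebf1 at 531 and 557 CPM, Nr2f2 at 207 and 271 CPM and Mef2c at 195 and 200.04 CPM.

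Receptors of vessel-active hormones and transmitters held a pair of opposite calls. Adra1a (chr14:66635251-66771168, +), an α1-adrenergic receptor of noradrenaline, stood at 4.60 CPM in the control and 23.6 CPM in the mutant (ratio 5.12 [2.82, 9.73]), with UMIs in 13 and 14 cells and 37.2% of the mutant UMIs in 1 cell. Its relative Adra1b (chr11:43774606-43901210, −) stood at 17.0 and 7.67 CPM (ratio 0.452 [0.233, 0.819]), in 43 and 12 cells. The other 13 tested of 24 receptor genes were not called, and the list's median was 0.11. Among them P2ry14, a receptor of UDP-glucose, stood at 336 and 287 CPM, the thrombin receptor F2r at 169.8 and 173 CPM, the sphingosine 1-phosphate receptor S1pr3 at 84.0 and 99.7 CPM, and the endothelin receptor Ednra at 76.3 and 83.9 CPM.

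Signals shared with the endothelium gave few calls at P10. Of 11 Notch genes tested, 1 was called: the ligand Jag2, at 6.04 and 1.10 CPM, was lower in the mutant (0.181 [0.0206, 0.742]) on UMIs in 15 and 2 cells. Notch3 stood at 116 and 163 CPM (1.41 [1.21, 1.64]), the target gene Hes1 at 400.3 and 357 CPM, Notch1 at 44 and 49.3 CPM and the Notch co-factor Rbpj at 41.2 and 39.5 CPM. The median of the Notch list was −0.06. Of 16 tested genes of PDGF, TGF-beta and angiopoietin signaling none was called (median 0.09), with the ligand Pdgfa at 142 and 115 CPM, Vegfa at 79.7 and 102 CPM and Angpt2 at 88.6 and 89.3 CPM.

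All 36 matrix and basement membrane genes had a log2 ratio above 0 at P10, but none reached a call. Their median was 0.29, against 0.03 over all genes tested. The type I collagen genes had the most UMIs, with Col1a1 (chr11:94936224-94953042, +) at 1733 and 2967 CPM (ratio 1.71 [1.65, 1.78]) and Col1a2 at 1380 and 2025 CPM (1.47 [1.41, 1.53]). Sparcl1, a secreted relative of the matrix protein Sparc, stood at 1472 and 1576 CPM, and Sparc at 1684 and 1860.1 CPM. The list's median was −0.06 in endothelial cells, −0.05 in fibroblasts and 0.26 in all other kept cells of the same libraries. Within mural cells it was 1.12 in Rgs5-only cells, where 19 of 33 tested genes were called higher, and 0.18 in Myh11-only cells, where none of 35 was. Over all tested genes 8.41% were called higher in Rgs5-only cells and 2.28% in Myh11-only cells. Without the Epcam cells, a choice made after seeing the data, the Rgs5-only median was 0.027, with 3 of 32 called higher and 1 lower. Over all genes tested there 5.04% were called higher and 3.13% lower. In the mutant 5 mural cells, and in the control 1, held over 0.5% of their UMIs in osteoblast and chondrocyte markers, and 33.1% of the mutant Col1a1 UMIs were in 1 cell. The part of such cells in the list was not tested.

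Growth, division and inflammatory genes completed the P10 comparison. Of 13 imprinted and growth genes tested Meg3 was called higher, at 557 and 1245 CPM with 33.1% of its mutant UMIs in 1 cell, and Igfbp3 lower, at 13.2 and 4.38 CPM (median −0.07). Igfbp7 (3699 and 3656 CPM), Igfbp5 (351 and 333 CPM) and the cell cycle inhibitor gene Cdkn1c (135 and 83.3 CPM) were not called. Of 22 cell cycle genes only Mcm3, a subunit of the replicative helicase, was called, with 31.4 and 14.2 CPM (0.454 [0.284, 0.702]), and the median was −0.03. None of 26 early response and heat shock genes was called (median −0.01), with Fos at 3485 and 3397 CPM, Jun at 2193 and 2374 CPM, Jund at 2129 and 2082 CPM and Btg2 at 1660.5 and 1610.2 CPM.

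Cytokine, chemokine and adhesion genes held 5 calls among 17 tested (median 0.20), most of them resting on few cells. The sets of mural cells went in opposite directions, with 10 of 15 genes called higher in Rgs5-only cells (median 1.64, or 9 of 13 and 1.84 without the Epcam cells), and 1 higher and 4 lower of 13 in Myh11-only cells (median −0.37). Over all tested genes 8.41% were called higher in Rgs5-only cells, or 5.04% without the Epcam cells. In Myh11-only cells 2.28% were called higher and 1.56% lower. The chemokine genes Ccl11 (5.76 and 28.5 CPM) and Ccl7 (0 and 15.3 CPM) were called higher with 65.4% and 82.1% of the mutant UMIs in 1 cell. Tnfaip3, an inhibitor of NF-κB signaling, stood at 11.2 and 26.3 CPM (2.34 [1.50, 3.67]) in 23 and 22 cells, and the interleukin receptor Il1r1 at 9.21 and 18.6 CPM (2.02 [1.21, 3.39]). Lcn2, a secreted iron-binding protein of neutrophils and epithelia, was called lower at 80.9 and 12.1 CPM, and 45.2% of its control UMIs were in 1 cell. Neutrophil markers summed to 1312 and 94.3 CPM in mural cells of these libraries, with 9 and 0 cells over 0.5%, and their part in Lcn2 was not tested. Nfkbia (321 and 244 CPM), Cxcl1 (114 and 203 CPM), Ccl19 (65.3 and 75.1 CPM) and Cxcl12 (77.1 and 66.3 CPM) were not called. None of 14 interferon and MHC class I genes was called (median −0.10).

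Across all genes, the first 12 called higher in the P10 mutant by the interval of the ratio were led by Vtn and Mid1. Mid1, encoding a ubiquitin ligase bound to microtubules, stood at 12.1 and 35.1 CPM (2.90 [1.94, 4.39]), and its ratio was 2.56 in endothelial cells and 2.54 in fibroblasts. Rgs16, a relative of Rgs5, stood at 49.5 and 107 CPM (2.17 [1.76, 2.68]), in 53 of 231 and 28 of 129 cells. Its ratio was 3.61 in Rgs5-only cells (191.8 and 693 CPM) and 0.691 in Myh11-only cells (17.5 and 12.1 CPM), and it lost its call without cells of mixed content and in all cells with at least 3 Myh11 UMIs. The death receptor gene Tnfrsf21 stood at 21.3 and 49.3 CPM (2.32 [1.68, 3.19]), with a ratio of 3.74 in Rgs5-only cells and 0.638 in Myh11-only cells. Its call was lost with the mean over cells and in cells with at least 3 Myh11 UMIs. Further genes were the phosphatase gene Cdc14a at 10.1 and 25.8 CPM and Stard13 at 9.50 and 24.1 CPM, which lost its call in cells with at least 3 Myh11 UMIs. The others were Bcorl1, Plxdc1, Zfp346, Mvb12b, Slc16a12 and Gm4258.

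The first 12 called lower held the helicase subunits Mcm4 (24.7 and 7.12 CPM, 0.288) and Mcm3, the helicase loader inhibitor Gmnn (36.0 and 15.3 CPM), Gins2 (17.0 and 6.03 CPM), Clspn (12.1 and 3.29 CPM) and the replication-dependent histone gene Hist1h2ap (121 and 41.7 CPM, 0.345 [0.267, 0.442]). Of these, Mcm3 stands in the cell cycle list above, which had 1 call of 22 in all. Gmnn lost its call under 5 alternatives, among them without the Epcam cells, and Hist1h2ap and Mcm3 lost theirs in Rgs5-only cells. First by the interval was Barx1, a homeobox gene, with 29.9 CPM in 40 control cells and 6.58 CPM in 8 mutant cells (0.220 [0.110, 0.40]). The 3-month mutant had 26.3 CPM of Barx1. The others were Angptl6, 4932422M17Rik, the sarcomere gene Tcap (10.4 and 2.74 CPM), Mdga1 and Npas4 (10.9 and 3.29 CPM).

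**Figure D4:**
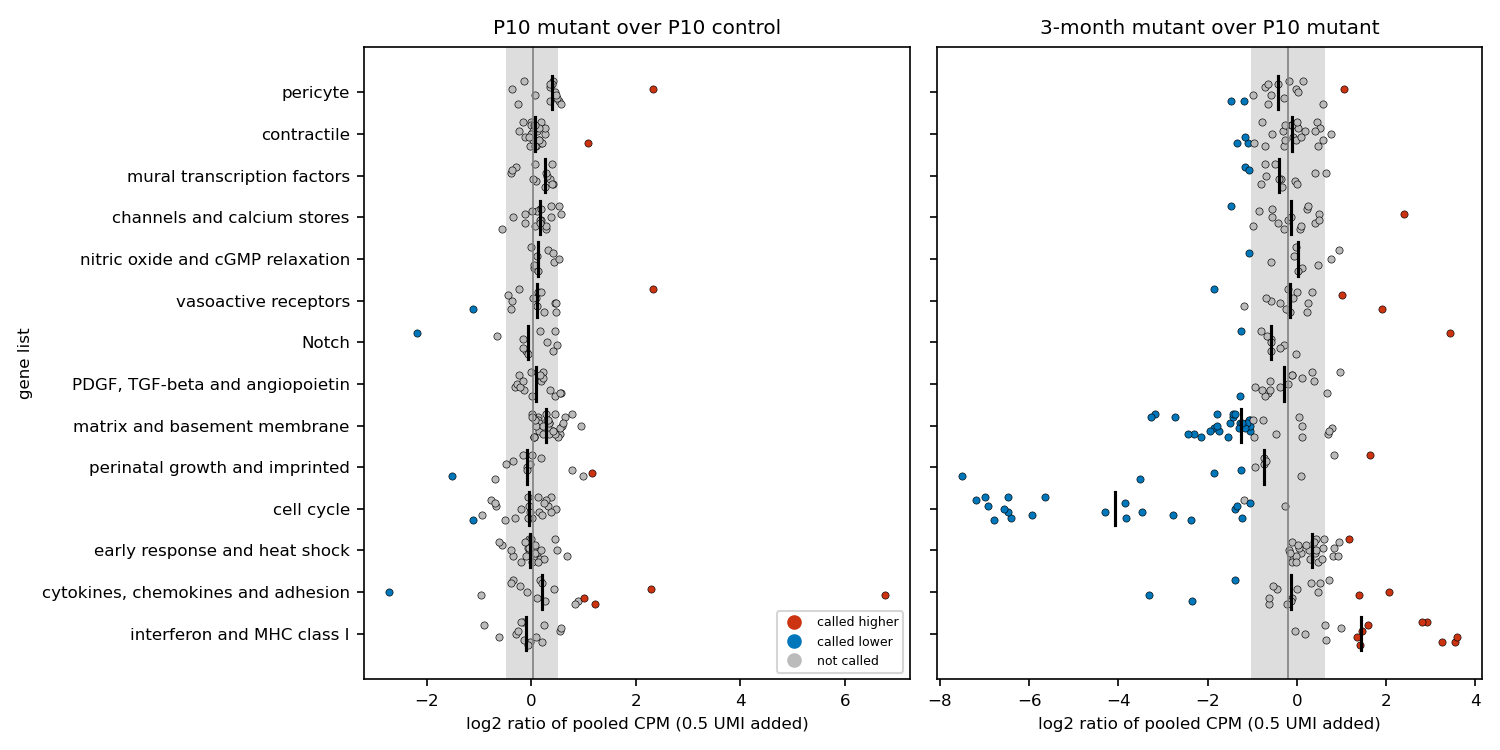
Log2 ratio of CPM for each tested gene of 14 lists in pooled mural cells, for the P10 mutant over the P10 control and for the 3-month mutant over the P10 mutant (points, red called higher, blue called lower, black bar at the list median, grey line and band at the median and the 10th to 90th percentile of all tested genes). At P10 the medians lie between −0.10 and 0.40. Between the mutants the cell cycle list sits at −4.08, the matrix list at −1.25 and the interferon and MHC class I list at 1.44.

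The mural cells of the 2 mutants, at P10 and at 3 months, differed in many more genes. Of 10382 genes tested, 532 were called higher at 3 months (5.12%) and 1046 lower (10.1%), or 15.2% in either direction, and the median log2 ratio over all of them was −0.21. List medians of all mural cells below are therefore to be read against −0.21. In Myh11-only cells the median over all tested genes was −0.19, with 5.2% called higher and 10.1% lower. In Rgs5-only cells it was −0.52, with 6.24% higher and 24.7% lower. Without the Epcam cells it was −0.18 there, with 5.46% and 10.1%. It was −0.08 in endothelial cells and −0.04 in fibroblasts. Scaled by the median of ratios, 731 were higher and 678 lower, so the excess of lower calls depended on the scaling. Endothelial cells had 7.79% called higher and 7.93% lower, and fibroblasts 8.82% and 7.57%. Of the genes called higher in mural cells, 381 of 436 tested in Myh11-only cells were also called higher there, as were 231 of 452 tested in endothelial cells and 269 of 449 tested in fibroblasts. Of the genes called lower, the corresponding counts were 753 of 923, 291 of 959 and 271 of 902. Myh11-only cells are most of the mural cells that gave the calls, so their overlap sets a part against its whole. Endothelial cells and fibroblasts are separate cells.

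Genes of cell division were low in the mural cells at 3 months. Of 22 cell cycle genes 20 were called lower, with a median log2 ratio of −4.08, or −4.03 with genes at 0 set to the limit that 3 counts give, and −1.19 in cells thinned to 2000 UMIs. Mki67, the proliferation marker, had 84.6, 110.2 and 1.88 CPM, in 40, 14 and 2 cells. The topoisomerase gene Top2a had 99, 80.0 and 0.626 CPM, and the tubulin-binding gene Stmn1 452, 446 and 40.0 CPM (0.0897 [0.0685, 0.116]). Hmgb2, a chromatin protein gene, stood at 652, 625 and 268 CPM, Tuba1b at 398, 385 and 151 CPM and the ubiquitin-conjugating gene Ube2c at 128, 139.8 and 1.25 CPM. Pcna (61.9 and 51.3 CPM) and Mcm2 (10.4 and 4.38 CPM) were not called. Both P10 libraries lay above the 3-month library for each of the 6 genes named before them. In endothelial cells 21 of 22 genes (median −2.79) and in fibroblasts 16 of 19 (median −2.85) were called lower as well.

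Matrix genes were likewise lower at 3 months, with 26 of 36 called lower and none higher (median −1.25). Col1a1 stood at 1733, 2967 and 325 CPM in the P10 control, the P10 mutant and the 3-month mutant (mutant ratio 0.109 [0.0998, 0.12]), and was seen in 213 of 231, 123 of 129 and 50 of 140 cells. Eln (chr5:134702593-134747323, −), encoding elastin, which gives vessel walls their recoil, stood at 948, 970.1 and 101 CPM (0.104 [0.0878, 0.122]). Col1a2 (1380, 2025 and 407 CPM), the type III collagen gene Col3a1 (852, 962 and 263 CPM), Sparc (1684, 1860.1 and 484 CPM) and Col4a1, of the basement membrane (642, 814 and 289 CPM), were also called lower. Both P10 libraries were above the 3-month library for each of these 6 genes. Sparcl1 was at 1472, 1576 and 1696 CPM and was not called. Mgp, an inhibitor of calcification (947, 1107 and 1798 CPM, ratio 1.63), and Timp3, a protease inhibitor (572, 767 and 1265 CPM, ratio 1.65), were higher without reaching a call; both were chosen after their values were seen.

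The lower matrix levels were shared with other cells to different degrees. In endothelial cells 16 of 36 genes were called lower (median −0.93) and in fibroblasts 12 of 35 (median −0.32). Col1a1 had a ratio of 0.0852 in endothelial cells and 0.0788 in fibroblasts, and Eln one of 0.112 and 0.0691. Col4a1 had a ratio of 1.32 in fibroblasts against 0.355 in mural cells. Among the mural sets, Myh11-only cells had 16 of 35 genes called lower and 3 higher (median −0.97), and Rgs5-only cells 27 of 31 lower (median −2.70). Over all tested genes 10.1% were called lower in Myh11-only cells and 24.7% in Rgs5-only cells. Without the Epcam cells, which gave 63.8% of the 3-month Rgs5-only UMIs, 18 of 31 were lower and 1 higher in Rgs5-only cells (median −1.23). Over all genes tested there 10.1% were called lower and 5.46% higher. Whether the list differs between sets or cell types was not tested.

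Genes of MHC class I and the interferon response were higher in mural cells at 3 months, with 9 of 14 called higher and none lower (median 1.44). B2m, the light chain of MHC class I, stood at 144, 129.9 and 976 CPM in the P10 control, the P10 mutant and the 3-month mutant (7.51 [6.55, 8.65]). The heavy chain gene H2-K1 stood at 92.4, 90.4 and 1054 CPM (11.7 [9.93, 13.8]) and H2-D1 at 131, 84.9 and 1027 CPM (12.1 [10.2, 14.3]). H2-K1 was seen in 84 of 231, 54 of 129 and 131 of 140 cells. All other kept cells of the 3-month library held it in 4784 of 5167 (92.6%), and the part of free RNA in the mural count was not tested. The immunoproteasome genes Psmb8 (22.7, 19.7 and 139.5 CPM) and Psmb9 (5.76, 6.58 and 64.4 CPM), the peptide transporter gene Tap1 (10.9, 11.5 and 29.4 CPM) and Ifit1 and Ifit3 were among the others called. Ifitm3 stood at 698, 825 and 1279 CPM and was not called. The ratio of H2-K1 was 5.30 in endothelial cells and 14.5 in fibroblasts, and 7 of 14 and 13 of 14 of the list were called higher there (medians 0.94 and 2.28).

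The contractile genes as a group had a median of −0.12 between the mutants, above that of all genes, and 0.09 when scaled by the median of ratios, so their direction depends on the scaling. Actg2 stood at 789, 902 and 354 CPM (0.393 [0.356, 0.432]) and Csrp1, a LIM protein gene of smooth muscle, at 988, 965 and 429.8 CPM (0.445 [0.407, 0.487]), and both were called lower, as was Des at 14.7, 31.2 and 14.4 CPM. Acta2 was lower at 3 months within the limit of 2-fold (0.583 [0.571, 0.596]), as was Myl9 at 6596, 6484 and 3960 CPM (0.611 [0.592, 0.630]). Tagln (0.946), Tpm2 (5278, 5475 and 5041 CPM) and Myl6 (6161, 6340.0 and 6212 CPM) were at like levels in all libraries. Mylk, the myosin light chain kinase, stood at 1454, 1753 and 2963 CPM (1.69 [1.62, 1.77]), above both P10 libraries but not called, and was chosen after its values were seen. Of the contractile genes 3 were thus called lower and none higher.

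Calcium handling genes held 1 call in each direction, and relaxation genes 1 lower call. Pln stood at 94.7, 139.8 and 734 CPM (5.25 [4.58, 6.04]), in 69 of 231, 41 of 129 and 81 of 140 cells, and its ratio in Myh11-only cells was 5.26. Its partner Atp2a2, the calcium pump of the sarcoplasmic reticulum, stood at 808, 908 and 1269.9 CPM and was not called. Kcnj8 was called lower at 51.8, 75.1 and 26.9 CPM (0.358 [0.248, 0.508]), and the potassium channel genes Kcnk3 (211, 166 and 123 CPM) and Kcnab1 (155, 174 and 141 CPM) were not called. In Rgs5-only cells without Epcam, Kcnj8 stood at 542 CPM in the P10 mutant and 472 CPM in the 3-month mutant. Those cells gave 191906 of 1824610 mural UMIs at P10 and 61494 of 1598556 at 3 months. The part of this share in the call was not tested. The median of the channel list was −0.13, or 0.09 scaled by the median of ratios. Among genes of nitric oxide and cyclic GMP, Pde5a stood at 1139, 1417 and 2739 CPM (1.93 [1.84, 2.03]), just short of a call. Gucy1a1 (278, 279 and 275 CPM), Gucy1b1 (248, 258 and 279 CPM) and Prkg1 (181, 195 and 187 CPM) were level, and Npr1, the receptor of atrial natriuretic peptide, was called lower at 15.3, 20.3 and 9.38 CPM (list median 0.01).

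The adrenergic receptor genes were again called in opposite directions. Adra1b stood at 17.0, 7.67 and 29.4 CPM, called higher at 3 months (3.83 [2.07, 7.54]), and Adra1a at 4.60, 23.6 and 6.26 CPM, called lower (0.265 [0.119, 0.536]). For Adra1a the P10 mutant was the library that stood apart, and the 3-month mutant was near the P10 control. For Adra1b the P10 control lay between the mutants. P2rx1, the ATP-gated channel through which sympathetic nerves contract vessels, was called higher at 38.0, 28.0 and 56.9 CPM (2.04 [1.43, 2.93]). Ednra (76.3, 83.9 and 83.8 CPM), P2ry14 (336, 287 and 251 CPM), F2r (169.8, 173 and 107 CPM) and S1pr3 (84.0, 99.7 and 116 CPM) were not called. The median of the receptor list was −0.16, or 0.05 scaled by the median of ratios.

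**Figure D5:**
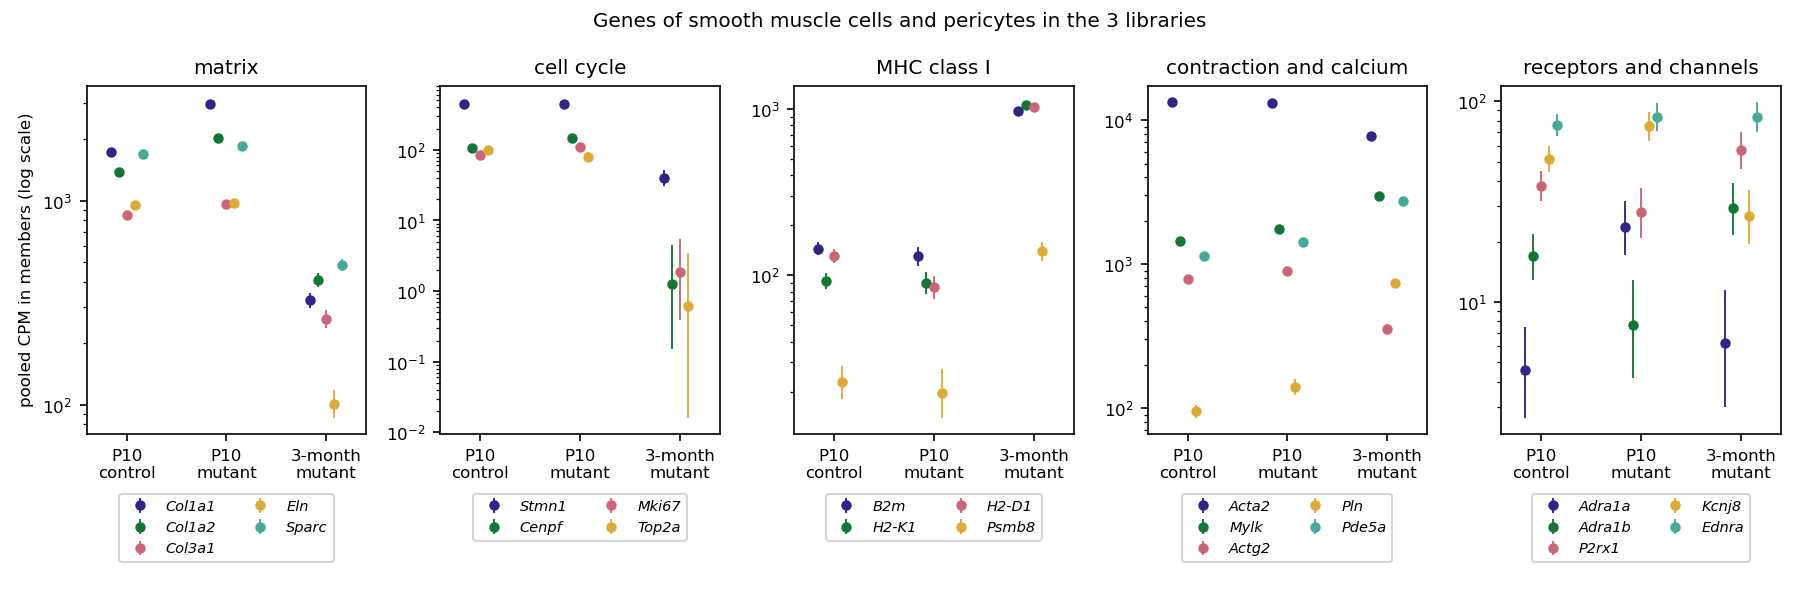
Level in CPM, on a log scale, of matrix, cell cycle, MHC class I, contraction and receptor genes in pooled mural cells of the P10 control, the P10 mutant and the 3-month mutant (points with Poisson 95% intervals). Col1a1 and Eln drop to 325 and 101 CPM at 3 months, and H2-K1 reaches 1054 CPM. In the P10 mutant Adra1a is at its highest and Adra1b at its lowest.

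Pericyte genes had a median of −0.42 over 15 genes between the mutants. Kcnj8 and Mcam (206, 265 and 116 CPM, 0.436 [0.366, 0.518]) were called lower, and Steap4, a metal reductase gene, higher at 21.3, 16.4 and 34.4 CPM (2.09 [1.32, 3.38]). Pdgfrb (195, 290.5 and 185 CPM, 0.637) and Ndufa4l2 (148, 191 and 116 CPM, 0.605) were lower within 2-fold. The ratio of Ndufa4l2 was 0.266 in Rgs5-only cells and 1.57 in cells with both genes, and when the mean over cells was used in place of pooled UMIs the list's median was 0.05. Without all Epcam cells the median was −0.23. The size of the difference in pericyte genes thus depended on which cells were counted and how. Among transcription factors Gata6 (31.7, 25.8 and 11.3 CPM) and Foxs1 (114, 88.2 and 41.9 CPM) were called lower, while Klf4 (423, 514 and 682 CPM), Ebf1 (531, 557 and 398 CPM), Nr2f2 (207, 271 and 269.6 CPM) and Mef2c (195, 200.04 and 151 CPM) were not, and the median was −0.41.

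Of the Notch genes, Nrarp, a feedback inhibitor, was called lower at 39.7, 52.6 and 21.9 CPM (0.416 [0.274, 0.619]) and Jag2 higher at 6.04, 1.10 and 14.4 CPM. Notch3 (116, 163 and 133 CPM), Hes1 (400.3, 357 and 273 CPM), Notch1 (44, 49.3 and 28.2 CPM) and Rbpj (41.2, 39.5 and 38.8 CPM) were not called, and the median was −0.58. Angpt2, the angiopoietin that loosens the contact between mural and endothelial cells, was called lower in mural cells at 88.6, 89.3 and 36.9 CPM (0.413 [0.301, 0.560]). Its ratio in endothelial cells was 3.08, the opposite direction. Pdgfa (142, 115 and 88.8 CPM) and Vegfa (79.7, 102 and 66.9 CPM) were not called, and the median of their list was −0.29.

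Imprinted and growth genes were lower at 3 months with 1 exception among those called. H19 had 28.8, 57.0 and 0 CPM, Meg3 557, 1245 and 108 CPM, Peg3 29.9, 21.4 and 8.76 CPM and Grb10 56.7, 53.2 and 14.4 CPM (0.271 [0.164, 0.430]), and the median of the list was −0.75. Igfbp5, a secreted binder of insulin-like growth factors, was called higher at 351, 333 and 1035 CPM (3.11 [2.83, 3.42]). Cdkn1c (135, 83.3 and 49.4 CPM) and Igfbp7 (3699, 3656 and 3902 CPM) were not called. Of the early response and heat shock genes Dnajb1, a chaperone partner, was called higher at 129, 176 and 395 CPM (2.24 [1.96, 2.57]), with Fos at 3485, 3397 and 4551 CPM, Jun at 2193, 2374 and 3153 CPM, Jund at 2129, 2082 and 1936 CPM and Btg2 at 1660.5, 1610.2 and 1711 CPM, and the median was 0.34.

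Cytokine genes pointed both ways between the mutants, with a median of −0.14, or 0.07 scaled by the median of ratios. In Myh11-only cells 6 of 12 were called higher and none lower (median 0.87), and in Rgs5-only cells none higher and 9 of 12 lower (median −2.37, or 5 of 12 and −0.91 without the Epcam cells). Over all tested genes 5.2% were called higher in Myh11-only cells. In Rgs5-only cells 24.7% were called lower, or 10.1% without the Epcam cells. Il33, an alarm cytokine, was called higher at 15.3, 7.67 and 20.6 CPM, with Lcn2 at 80.9, 12.1 and 51.3 CPM. Neutrophil markers stood at 94.3 CPM in the mural cells of the P10 mutant and 1481 CPM at 3 months, and gland markers at 44.4 and 4414 CPM, and their part in these 2 calls was not tested. Il6 (25.3, 28.5 and 10.6 CPM), Ccl2 (31.9, 59.2 and 11.3 CPM) and Ccl7 (0, 15.3 and 1.25 CPM) were called lower. Ccl19, a chemokine of lymphocyte homing, stood at 65.3, 75.1 and 107 CPM and was not called, nor were Nfkbia (321, 244 and 302 CPM), Cxcl1 (114, 203 and 132 CPM) and Cxcl12 (77.1, 66.3 and 45.7 CPM).

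The first 12 genes called higher at 3 months were led by secreted proteins of glands. Obp1a (2.59, 0 and 1428 CPM), Obp1b (0, 0 and 1242 CPM), Gm14744, Mup4 (0, 0 and 318 CPM), Lcn11 (8.35, 0.548 and 365 CPM), Mup5 and 2310057J18Rik had UMIs in 14 to 30 of the 140 mural cells at 3 months. The 5 gland markers summed to 2179, 44.4 and 4414 CPM in mural cells and to 5591, 2959.5 and 7622 CPM in other kept cells, and 5, 0 and 16 mural cells had over 0.5% of their UMIs in them. Obp1a, Obp1b and Lcn11 are among both the 5 markers and the 7 calls, so the sum is no separate measure of these calls. The part of gland RNA in them was not tested. Without cells of mixed content, that is with over 0.5% of UMIs in markers of another type or over 3 times the median depth, 432 genes were higher and 882 lower of 9599 tested.

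The remaining 5 were Tcap, Lars2, Sncg, Gldn and Aox3. Tcap, encoding the sarcomere protein telethonin, stood at 10.4, 2.74 and 121 CPM (44.1 [18.6, 137]), in 22 of 231, 5 of 129 and 38 of 140 cells. Sncg, encoding γ-synuclein, stood at 9.78, 6.58 and 132 CPM (20.1 [11.3, 39.5]) in 16, 7 and 29 cells, and Gldn had UMIs in 23 cells at 3 months and in none at P10. Lars2, the mitochondrial leucyl-tRNA synthetase, stood at 101, 99.7 and 2026 CPM (20.3 [17.5, 23.7]), and its ratio was 20.3 in endothelial cells and 17.3 in fibroblasts. In all other kept cells the ratio was 16.8 for Lars2, 6.55 for Tcap, 4.16 for Sncg, 5.24 for Gldn and 2.34 for Aox3. All 5 genes were thus higher at 3 months outside the mural cells as well. The 3-month library was counted with another version of Cell Ranger than both P10 libraries, which cannot be told apart from age. Most of the first 12 called lower are known for roles in cell division, led by Cenpf (107, 149 and 1.25 CPM) and including Cdk1 (74.8, 83.3 and 0.626 CPM), Ccnb2 (37.7, 45.5 and 0 CPM) and Cks2 (123, 159 and 6.26 CPM). The list also held Top2a, Cdca3, Cdc20, Lockd, Cdca8, Mxd3 and Prc1. It held Tnnt2, the cardiac form of troponin T, as well, at 205, 168 and 1.88 CPM (0.0112 [0.00229, 0.0329]), seen in 107 of 231, 56 of 129 and 2 of 140 mural cells.

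Genes that led the Myh11-only cells over the other sets were also examined between the mutants, chosen after their values were seen. Pcp4, a calmodulin regulator, stood at 1847, 1708 and 5554 CPM in Myh11-only cells and at 1429, 1339 and 4423 CPM in all mural cells (3.30 [3.15, 3.46]). Inmt, a methyltransferase gene, stood at 23.0, 32.3 and 310 CPM (9.58 [7.30, 12.8]) but in only 12, 6 and 21 cells. The oxygen-binding protein gene Ngb (56.4, 66.9 and 158 CPM) and the vasodilator peptide gene Adm (28.8, 25.8 and 78.2 CPM, 3.04 [2.15, 4.34]) were called higher too. Npnt, a matrix ligand of integrins, was called lower at 166, 152 and 74.4 CPM (0.489). In Rgs5-only cells Pcp4 had 10.5, 0 and 64.8 CPM and Ngb 0, 5.21 and 0 CPM.

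Markers of other cell types in the mural cells set the limits of these values. The 9 endothelial markers summed to 172, 203 and 115 CPM, with Cdh5 and Tie1 at 0 in the P10 control and Cldn5, Cdh5, Kdr and Emcn at 0 in the P10 mutant. The 7 fibroblast markers summed to 703, 756 and 446 CPM, against 525, 469 and 1297 CPM in other kept cells. The 7 macrophage markers summed to 19, 23.6 and 73.8 CPM and the glial markers to 18.4, 6.03 and 158 CPM. Those of vomeronasal neurons summed to 84.3, 65.2 and 20.02 CPM, of skeletal muscle to 20.1, 24.7 and 11.9 CPM, of lymphocytes and mast cells to 5.18, 2.19 and 39.4 CPM and of red blood cells to 1.44, 2.74 and 0.626 CPM. The basal and myoepithelial markers summed to 665, 455 and 577 CPM, with 4, 0 and 2 mural cells over 0.5%, and the myoepithelial receptor gene Oxtr was at 0 in every library. Osteoblast and chondrocyte markers summed to 308, 506 and 83.2 CPM and neutrophil markers to 1312, 94.3 and 1481 CPM. Gland and neutrophil markers were thus lowest in the P10 mutant, in both comparisons the shared library.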

How the data were processed

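Each of the 3 libraries was deposited as whole counts of UMIs per gene and barcode, not normalised, which the authors made with Cell Ranger on mm10 (per the file headers, version 6.0.1 at 3 months and 4.0.0 at P10). The submitters' processing notes also name bcl2fastq and Seurat 3.2.3. Library totals were 83870584, 80760046 and 70074800 UMIs over 32285 genes.

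Counts were analysed in Python 3.11.15 with NumPy 2.4.6, SciPy 1.17.1, pandas 2.3.3 and matplotlib 3.10.9. The study's mitochondrial limit of 5% left 23, 13 and 32 mural cells, and 10% was used here. Levels were given as CPM with exact Poisson intervals, shares with Clopper-Pearson intervals and ratios with conditional exact binomial intervals. Log2 ratios used a prior of 0.5 UMIs. Thinning to 2000 UMIs was 1 draw (seed 1), which left out cells below that depth. Calls were also run on simulated counts with counting error only, so no error rate from the spread between cells or animals was measured.

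The members and lists were chosen with earlier results of these data known. Named genes were, per comparison and direction, the first 12 calls by the interval bound nearest to 1 (not mitochondrial or sex-linked, at most 25% of UMIs in 1 cell, level at least that of other kept cells), the 4 genes with most UMIs and the called genes of each list, the markers and the 20 most enriched genes. Coordinates are from GENCODE M21. Alternatives changed the mitochondrial limit, the UMI threshold, depth, scaling, the tested minimum and the cells included.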

Additional observations from a re-analysis of the deposited data

How the results depend on the processing

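No paired analysis was possible because each group was 1 library. Over the alternatives, 489 calls of named genes were kept and 13 were lost (Gmnn, Hist1h2ap, Mcm3, Rgs16, Tnfrsf21 and Stard13, all at P10), and no named gene turned direction where it was tested. Named genes not tested under an alternative were left out, so thinning checked 10 and the minimum of 100 UMIs 26 of 48. A changed minimum leaves ratios and intervals as they were, so its kept calls were fixed in advance. Of 364 list medians, 59 had the opposite sign of the reported value, most of them of lists whose reported median was near 0, and 10 of the 28 medians kept their sign throughout. Of the same medians, 308 stayed within the interval of the reported value, and the 56 others are given here with the cause not tested. The median over all tested genes left its interval 16 times of 26.

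With the mitochondrial limit at 5%, the shares were 1.54%, 1.06% and 0.910%, the mural cells per endothelial cell 0.338, 0.140 and 0.132, and per fibroblast 0.359, 0.277 and 0.112. Of 3450 genes tested between the mutants, 262 were called higher (7.59%) and 473 lower (13.7%), against 5.12% and 10.1% in the reported comparison. List medians between the mutants were −0.48 for contractile, −0.67 for cytokine and −0.89 for transcription factor genes. They were −0.60 for nitric oxide, −1.25 for pericyte and −0.93 for receptor genes. At P10 they were 1.77 for cell cycle, −0.17 for channel, −0.11 for contractile, 0.58 for matrix, 0.016 for nitric oxide and 0.71 for pericyte genes.

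With a threshold of 2 UMIs, the control share was 6.09% and the 3-month share 3.32%, with 0.512 mural cells per endothelial cell and 0.454 per fibroblast in the latter. The contractile median was −0.36 between the mutants and the matrix median 0.12 at P10. In cells thinned to 2000 UMIs, the 3-month share was 2.01%, the ratios per endothelial cell 2.29, 1.27 and 0.508, and the 3-month ratio per fibroblast 0.245. At P10, 87 of 4248 tested genes were called higher (2.05%) and 73 lower (1.72%). Between the mutants, 160 of 3201 were called higher (5%) and 254 lower (7.94%). Of the reported calls that were tested there, 5 of 10 higher and 9 of 14 lower were kept at P10. Between the mutants 76 of 95 and 118 of 195 were kept. Medians were 0.32 for channel, −0.12 for contractile and 0.47 for MHC class I genes at P10, and −1.19 for cell cycle genes between the mutants.

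In Rgs5-only cells the medians at P10 were 0.85 for Notch, 0.85 for PDGF, 1.60 for cell cycle, 0.73 for channel, 0.57 for contractile, 1.64 for cytokine, 0.13 for early response, 0.32 for MHC class I, 1.12 for matrix, 0.63 for transcription factor, 0.89 for nitric oxide, 0.76 for pericyte, 0.91 for imprinted and 0.92 for receptor genes, with 428 genes higher. Between the mutants they were −1.62 for Notch, −1.16 for PDGF, −0.94 for channel, −1.46 for contractile, −2.37 for cytokine, −0.21 for early response, 0.53 for MHC class I, −2.70 for matrix, −1.41 for transcription factor, −0.91 for nitric oxide, −1.62 for pericyte and −1.03 for receptor genes, with 169 higher and 670 lower. In all cells with at least 3 Myh11 UMIs, they were 0.62 for cytokine, −0.92 for matrix and 0.082 for pericyte genes between the mutants, and −0.44 for cytokine and 0.089 for matrix genes at P10, where 165 of 10926 tested genes were lower. In Rgs5-only cells 5092 genes were tested at P10 and 2710 between the mutants, and the median over all of them was 0.04 and −0.52.

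Without cells with 3 Epcam UMIs, an alternative chosen after seeing the data, the control share was 4.65% and the 3-month share 2.22%, 118 genes were lower at P10, and the P10 medians were −0.049 for contractile, 0.31 for MHC class I and 0.040 for nitric oxide genes. Averaging over cells gave 393 higher and 556 lower at P10 and a pericyte median of 0.054 between the mutants. In this alternative a call rested on the ratio alone and used no interval. Its counts therefore cannot be set directly against the reported ones, and its kept calls of named genes were judged by the ratio alone. Scaling by the median of ratios gave 678 lower between the mutants and medians of 0.093 for contractile, 0.55 for early response and −1.04 for matrix genes. Genes tested from 1 UMI gave 267 higher of 17603 at P10 and 866 higher of 16974 between the mutants. From 100 UMIs there were 25 higher and 67 lower of 6525 at P10, and 164 and 333 of 4753 between the mutants.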
